A study of Mus musculus with 2 samples.

Results

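The transcripts described here are those of 39 genes that mouse cells use to copy their DNA and to divide, chosen by symbol for their part in S phase or mitosis, by a rule that uses no measured value. All 39 are listed in the deposited TPM table of 24054 genes, and all 39 also have a value in the second deposited table, of 16318 genes. They were read in liver RNA of male C57BL/6 mice (the floxed allele was made in C57BL/6N) aged 8 to 12 weeks, either WT or Pgrmc1 KO (Pgrmc1 -/Y). The KO mice lack exons 1 and 2 of the X-linked Pgrmc1 gene in the whole body, because a floxed allele was crossed to Sox2-Cre, a transgene active in the early embryo, so a difference need not arise in the hepatocyte. RNA of 5 mice was pooled for each genotype, which gave 1 library per genotype, and neither group has a replicate. Whether the WT mice carried the Cre transgene is not given in the sources used here. The libraries were made to ask whether cytochrome P450 transcripts are lower in liver without Pgrmc1, a heme-binding protein of the endoplasmic reticulum, and the genes described here lie outside that question.

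A cell enters the cycle when cyclin D and then cyclin E kinases inactivate the retinoblastoma family and free E2F factors, which switch on the genes of DNA replication. Later, cyclin A and cyclin B with Cdk1 drive mitosis, whose genes are switched on by B-Myb and Foxm1. In resting cells the DREAM complex, built on E2F4 and an Rb relative, keeps both waves of genes silent, the first through E2F sites and the second through the cell cycle homology region (CHR), which usually lies beside CCAAT boxes bound by NF-Y. Hepatocytes of the adult liver rarely divide, although many hold more than a single genome copy and they can return to the cycle after loss of tissue. The members were set in 2 classes, 17 genes of G1 and S phase and 22 genes of mitosis, and in 7 roles.

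The promoters of both classes were searched for the letters of these elements, and 5 are printed. RefSeq promoters of the GRCm38 assembly (mm10), from 250 bases before to 50 bases after the annotated start, were found for 31 of the 39 members; Ccnd1, Ccne2, Mcm4, Ccna2, Aurkb, Foxm1, Kif20a and Tpx2 had no entry. The letters CCAAT, the CHR letters TTTGAA or TTCGAA, and the E2F letters TTTCCCGC or TTTGGCGC or TTTCGCGC were searched on both strands, in the first listed promoter of each gene. A promoter with both CCAAT and CHR letters was found for 13 of 17 mitosis members (76.5%), for 2 of 14 G1 and S members (14.3%), for 7.70% of all 27025 genes in the promoter table and for 6.03% of the 11074 genes tested below that have an entry. E2F letters were found for 6 of 14 G1 and S members (42.9%) and 1 of 17 mitosis members (5.88%), against 1.91% of all genes and 3.31% of those tested. A match of letters is a description and not a measured binding site. The 5 promoters below are of the members with the most estimated reads in their role, among roles whose leading gene had an entry. They are written 5′ to 3′ on the strand of the gene, with the searched letters of either strand in capitals. The promoter of Mcm7 (chr5:138171834-138172133, minus strand) holds CHR letters 173 bases and E2F letters 165 bases before the start, CCAAT letters on the opposite strand, and a second E2F match that overlaps a CCAAT match. That of Tyms (chr5:30073576-30073875, minus strand) holds none of them. Cenpf (chr1:189688037-189688336, minus strand), Kif11 (chr19:37376132-37376431, plus strand) and Mki67 (chr7:135716330-135716629, minus strand) hold CCAAT with CHR letters, and in Kif11 these lie 45 and 19 bases before the start.
Mcm7: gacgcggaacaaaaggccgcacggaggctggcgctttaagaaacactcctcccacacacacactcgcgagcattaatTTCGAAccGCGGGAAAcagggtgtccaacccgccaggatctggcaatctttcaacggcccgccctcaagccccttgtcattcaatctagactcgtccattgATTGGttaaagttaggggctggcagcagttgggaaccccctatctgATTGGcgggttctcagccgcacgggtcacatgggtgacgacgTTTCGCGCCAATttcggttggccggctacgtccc
Tyms: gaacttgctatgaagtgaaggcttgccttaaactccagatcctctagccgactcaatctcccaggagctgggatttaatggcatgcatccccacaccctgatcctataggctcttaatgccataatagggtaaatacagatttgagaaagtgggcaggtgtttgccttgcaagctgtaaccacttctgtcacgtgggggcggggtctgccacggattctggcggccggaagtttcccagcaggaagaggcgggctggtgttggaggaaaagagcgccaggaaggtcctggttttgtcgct
Cenpf: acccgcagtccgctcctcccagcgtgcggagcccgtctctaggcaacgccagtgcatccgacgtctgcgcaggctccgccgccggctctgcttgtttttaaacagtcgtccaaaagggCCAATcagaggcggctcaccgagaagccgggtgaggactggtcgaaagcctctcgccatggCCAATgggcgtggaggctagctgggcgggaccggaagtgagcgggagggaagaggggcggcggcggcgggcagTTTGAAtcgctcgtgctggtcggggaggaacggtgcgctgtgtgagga
Kif11: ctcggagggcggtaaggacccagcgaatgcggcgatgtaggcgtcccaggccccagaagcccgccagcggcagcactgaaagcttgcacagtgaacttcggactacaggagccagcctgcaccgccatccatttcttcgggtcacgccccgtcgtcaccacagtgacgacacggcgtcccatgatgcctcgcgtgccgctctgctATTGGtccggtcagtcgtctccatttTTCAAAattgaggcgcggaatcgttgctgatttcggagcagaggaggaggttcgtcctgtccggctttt
Mki67: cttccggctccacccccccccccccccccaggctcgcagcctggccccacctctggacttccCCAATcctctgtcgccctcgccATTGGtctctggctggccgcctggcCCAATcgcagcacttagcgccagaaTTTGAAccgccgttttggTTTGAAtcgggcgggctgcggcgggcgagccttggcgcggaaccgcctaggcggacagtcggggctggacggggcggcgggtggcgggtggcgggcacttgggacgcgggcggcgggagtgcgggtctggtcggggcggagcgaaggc

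Depth and library identity were examined first. The value of 1 read in each library estimates 22086688 reads on genes in the KO library and 29710410 in the WT library. Pgrmc1 stood at 0.68 TPM in KO against 949 in WT, as the labels say. TPM (the scaled transcript share of a gene) is a level corrected for transcript length, so that genes can be compared with each other. Transcripts of hepatocytes dominated both pools, where 8 marker genes summed to 74763 TPM in KO and 77879 in WT with Alb at 47242 TPM in KO against 49729 in WT. The 39 members together held 0.0252% of the estimated reads in KO and 0.0253% in WT. In such bulk RNA, fewer cells in the cycle and less RNA per such cell cannot be told apart. Every 95% interval below is a Clopper-Pearson interval of the KO to WT ratio, or an exact Poisson interval of a sum, from estimated reads. They hold counting error and nothing of the spread from mouse to mouse, which the pools hide.

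The proliferation transcripts were low in both livers, and none of the 39 changed by the size rule. That rule called a gene higher or lower when its fold reached 1.4, or 0.714 downward, on the scale log2((KO TPM + 0.1)/(WT TPM + 0.1)) and its counting interval lay on the same side of 0. It called 0 of 39 members in either direction. Of the 14922 genes of both tables that average 0.1 TPM or more, it called 1.72% higher and 1.60% lower, and of the 6595 genes with a mean of 0.1 to 5 TPM 2.82% and 2.46%. On the fold alone, with no interval asked, 0 members were higher and 2, Plk1 and Bub1b, were lower, against 12.1% higher and 8.60% lower among genes of 0.1 to 5 TPM. Counting intervals without 0 were found for Tyms upward and Kif11 downward, against 9.58% upward and 10.9% downward among the 14922 genes. The median member had 1.29 TPM in KO and 1.5 in WT, where the median gene had 6.66 and 6.63. With 47 estimated reads in KO and 72.4 in WT, the median member had an interval 1.13 wide on the log2 scale, so that a change of the size of the rule was often not detectable at this depth.

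**Figure D1:**
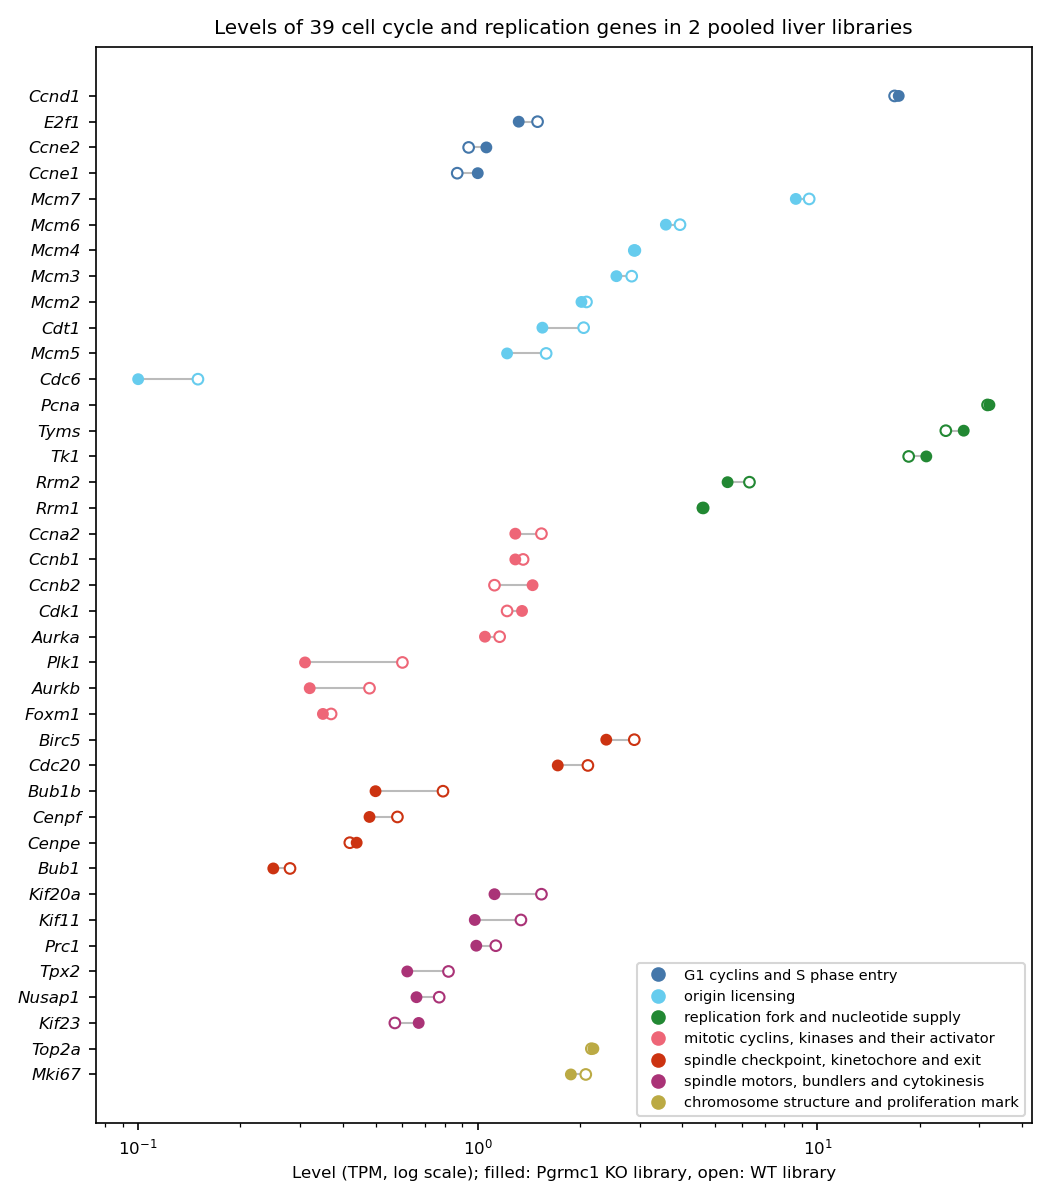
Level of each of the 39 members in TPM on a log axis, 1 filled point for the Pgrmc1 KO library and 1 open point for the WT library, coloured by role. Pcna, Tyms, Tk1 and Ccnd1 lie above 10 TPM, 12 members lie below 1 TPM on average, and the points of most genes nearly coincide.

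Levels spanned more than 2 orders of magnitude among the members, from Cdc6 to Pcna in both libraries. Only 4 members had a mean above 10 TPM, namely Pcna, Tyms, Tk1 and Ccnd1, and Mcm7 and Rrm2 lay between 5 and 10 TPM. A further 21 members lay between 1 and 5 TPM, and 12 lay between 0.1 and 1 TPM. G1 and S members had medians of 2.91 TPM in KO against 2.89 in WT, and mitosis members had medians of 0.985 and 1.13 TPM. The highest mitosis member, Birc5, at 2.39 TPM in KO against 2.89 in WT, was below the 6 most abundant G1 and S members in both libraries.

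Among the genes that open the cycle, Ccnd1, the cyclin D that couples growth signals to G1 kinases, was by far the most abundant (chromosome 7, 144929931 to 144939831 of GRCm38). It stood at 17.4 TPM in KO against 16.9 in WT, and its log2 ratio of the authors' means was 0.05 (interval -0.08 to 0.18). Its interval holds 0 and is narrow, since it rests on 887 and 1155 estimated reads. The S phase cyclins Ccne1 (1.0 TPM in KO, 0.87 in WT) and Ccne2 (1.06 and 0.94) were slightly higher in KO, on at most 48 reads a library and with intervals that hold 0. E2f1, which encodes an activator of replication genes, was at 1.32 TPM in KO against 1.5 in WT. The 4 genes summed to 20.7 TPM in KO against 20.2 in WT, a ratio of 1.03.

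The licensing genes, which load the replicative helicase on origins in G1, were mostly a little lower in KO. The helicase subunits Mcm2 to Mcm7 summed to 20.9 TPM in KO against 22.8 in WT, a ratio of 0.918. Mcm7 led with 8.64 TPM in KO against 9.46 in WT, followed by Mcm6 (3.58 and 3.94), Mcm4 (2.91 and 2.89), Mcm3 (2.56 and 2.84), Mcm2 (2.02 and 2.09) and Mcm5 (1.22 and 1.59). Of the 6 subunits, which act in 1 ring, 5 lay below 0 and each interval held 0. Cdt1, the loading factor, was at 1.55 TPM in KO against 2.05 in WT (log2 ratio of means -0.41, interval -0.98 to 0.15). Cdc6, its partner, was the rarest member, at 0.10 and 0.15 TPM on 4 and 10 estimated reads, too few to compare. The 8 licensing genes summed to 22.6 TPM in KO against 25.0 in WT, and their summed means gave a log2 ratio of -0.13 with an interval of -0.26 to -0.0067. Without Mcm7 it was -0.14 with an interval of -0.30 to 0.01, which holds 0.

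The genes of the fork and of nucleotide supply were the most abundant group and had a slightly higher sum in KO. Pcna, the sliding clamp of DNA polymerases that also serves in repair, was at 32.1 TPM in KO against 31.7 in WT (log2 ratio of means 0.04, interval -0.14 to 0.21). Tyms, which makes thymidylate, was at 27.0 TPM in KO against 23.9 in WT (chromosome 5, 30038546 to 30073645 of GRCm38). On 1378 and 1636 estimated reads, its log2 ratio of means was 0.19 with an interval of 0.08 to 0.29, the single member interval above 0. Tk1, which salvages thymidine, had the same log2 ratio of 0.19, at 20.9 TPM in KO against 18.6 in WT, but on fewer reads, and its interval (-0.02 to 0.40) held 0. Of the subunits of ribonucleotide reductase, Rrm1 was at 4.59 TPM in KO and 4.61 in WT and Rrm2, the S phase subunit, at 5.44 and 6.31, and both intervals held 0. The 5 genes summed to 90.0 TPM in KO against 85.1 in WT, a ratio of 1.06, and their summed means gave an interval of 0.04 to 0.19 on the log2 scale. Without Pcna it was 0.05 to 0.22. Tyms carries much of this, with 1378 of the 2621 estimated reads in KO and 1636 of the 3270 in WT, and the sum without Tyms was not computed. Of the 5 genes, 2 lay below 0, and the median log2 change was 0.02. Pcna shares 10.1% of its 100-base transcript windows with another gene, its pseudogene Pcna-ps2, between which reads may be split. Of the other members, 12 share windows with another gene and 26 share none.

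**Figure D2:**
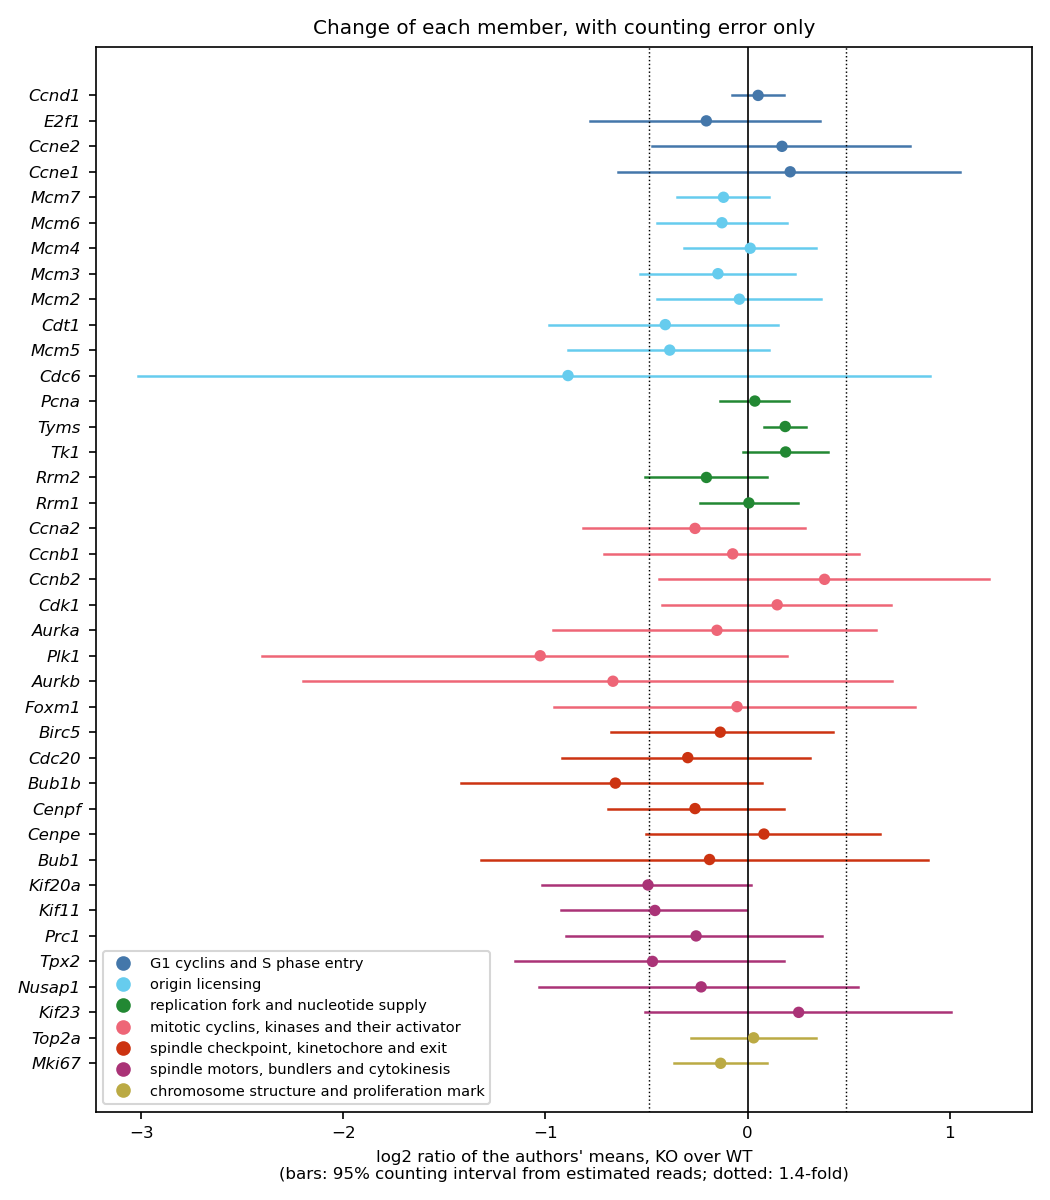
Log2 ratio of the authors' means, KO over WT, for each member (points) with its 95% counting interval (bars), coloured by role; dotted lines mark a fold of 1.4. All intervals cross 0 but those of Tyms (0.08 to 0.29) and Kif11 (-0.93 to -0.0055), and intervals are widest for the rarest genes, such as Cdc6.

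Mitosis genes were mostly near or below 1 TPM, and their values were more often lower than higher in KO. Of the 22, 17 lay below 0 (77.3%), against 52.3% of all genes tested and 47.1% of genes of 0.1 to 5 TPM. The mitotic cyclins Ccna2 (1.29 TPM in KO, 1.54 in WT) and Ccnb1 (1.29 and 1.36) were slightly lower, whereas Ccnb2 (1.45 and 1.12) and their kinase Cdk1 (1.35 and 1.22) were slightly higher, and all 4 intervals held 0. Reads of Ccnb1 may be split with pseudogenes, since 14.9% of its windows occur in other genes. The kinase gene Aurka, of the spindle poles, was at 1.05 TPM in KO against 1.16 in WT, and Aurkb, of the chromosomal passenger complex, at 0.32 and 0.48. Plk1, a kinase that acts from mitotic entry to cytokinesis, had the largest difference of any member, at 0.31 TPM in KO against 0.60 in WT, a log2 change of -0.77. It rests on 8 and 22 estimated reads, and on the scale of the means its interval (-2.40 to 0.20) holds 0. Foxm1, the activator of many of these genes, was at 0.35 and 0.37 TPM.

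The checkpoint and kinetochore genes also had a lower sum in KO, and each of their intervals held 0. Bub1b, a sensor of unattached chromosomes, was at 0.50 TPM in KO against 0.79 in WT (log2 change -0.57, log2 ratio of means -0.65 with an interval of -1.42 to 0.07), and its relative Bub1 was at 0.25 and 0.28 TPM. Cdc20, which activates the anaphase-promoting complex, was at 1.72 TPM in KO against 2.11 in WT. Birc5 (survivin), the passenger complex subunit, was at 2.39 and 2.89 TPM. The kinetochore genes Cenpe (0.44 TPM in KO, 0.42 in WT) and Cenpf (0.48 and 0.58) had log2 ratios of means of 0.08 and -0.26. The 6 genes summed to 5.78 TPM in KO against 7.07 in WT, a ratio of 0.818, with an interval of the summed means of -0.46 to 0.01 that holds 0.

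Spindle motors and bundlers also had a lower sum in KO. Kif11, the motor that pushes spindle poles apart (GRCm38 chromosome 19, 37376382 to 37421863), had 0.98 TPM in KO against 1.34 in WT. Its log2 ratio of means was -0.46 with an interval of -0.93 to -0.0055, the single member interval below 0, on 63 and 117 estimated reads. Kif20a, a motor of cytokinesis, was at 1.12 TPM in KO against 1.54 in WT, and its interval (-1.02 to 0.02) just held 0. Tpx2 (0.62 TPM in KO, 0.82 in WT), Nusap1 (0.66 and 0.77) and Prc1 (0.99 and 1.13), which bind and bundle spindle microtubules, were also lower, and Kif23, a motor of the central spindle, was higher (0.67 and 0.57), all with intervals that hold 0. Together the 6 genes summed to 5.04 TPM in KO against 6.17 in WT, a ratio of 0.817, and the log2 ratio of summed means was -0.34 (interval -0.58 to -0.10). Without Kif20a that interval was -0.57 to -0.03.

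Mki67 and Top2a, the best sampled mitosis members, showed little difference. Mki67, the gene of the proliferation mark Ki-67, was at 1.88 TPM in KO against 2.08 in WT, and on 262 and 388 reads its log2 ratio of means was -0.13 (interval -0.36 to 0.10). Top2a, the topoisomerase that untangles sister chromosomes, was at 2.19 TPM in KO against 2.16 in WT (0.03, -0.28 to 0.34). The intervals of both genes hold 0 and end inside the 1.4-fold threshold on the log2 scale (0.49).

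Summed over all 39 members the libraries differed by less than the counting error, with 155.66 TPM in KO against 155.61 in WT, and the interval of the summed means ran from -0.05 to 0.05 on the log2 scale. The sums of the classes lay on opposite sides of 0, while by count 27 of all 39 members (69.2%) and 10 of the 17 G1 and S members (58.8%) lay below 0. The median log2 change of the G1 and S members was -0.047, on the other side of 0 from their sum. G1 and S members summed to 133 TPM in KO against 130 in WT, a ratio of 1.02 (interval of the log2 ratio of summed means -0.01 to 0.11). Mitosis members summed to 22.3 TPM in KO against 25.3 in WT, a ratio of 0.880. These sums rest on 1116 estimated reads in KO (Poisson interval 1051 to 1183) and 1698 in WT (1618 to 1781), and the log2 ratio of summed means was -0.17 (interval -0.28 to -0.06). It was also -0.17 (-0.29 to -0.06) without Birc5, the most abundant of them. Such an interval leaves out the spread between mice, and 1430 genes tested have an interval above 0 and 1623 below it, so a sum whose interval misses 0 is not shown to differ between genotypes. By promoter, the 15 members with CHR letters had a median log2 change of -0.13 and the 16 without them -0.14.

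**Figure D3:**
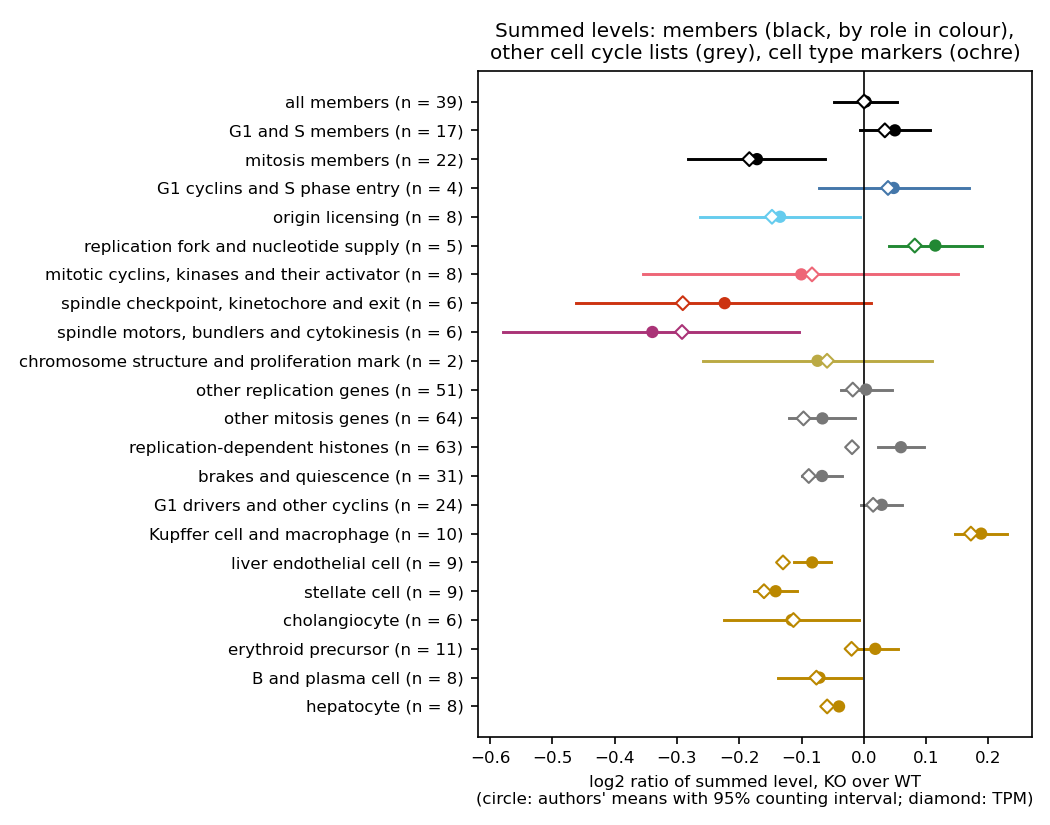
Log2 ratio of summed levels, KO over WT, for the members in all, by class and by role, for other cell cycle lists and for cell type marker lists; circles are the authors' means with 95% counting intervals and diamonds are TPM. The sum of all members lies at 0, the mitosis members at -0.17 and the fork and nucleotide genes at 0.11, while the Kupffer cell list lies at 0.19.

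For other lists, the shares of all genes tested to read the counts against are 1.72% called higher, 1.60% called lower and 52.3% below 0. Of 50 other replication genes that average 0.1 TPM or more, 0 were called higher and 1 lower, and 24 (48%) lay below 0. Their median log2 change was 0.00 against -0.01 for all genes tested, and the 51 in both tables summed to 252 TPM in KO against 255 in WT. The gene called was Gins3, of the helicase complex, at 0.35 TPM in KO against 0.71 in WT on 10 and 29 estimated reads, and Mcm8 lay highest (1.24 and 0.86 TPM). Of 63 other mitosis genes, 37 lay below 0 (58.7%) with a median of -0.07, and 0 were called higher and 2 lower. The genes called were Esco2, which helps to join sister chromatids (0.80 TPM in KO, 1.4 in WT), and Cks1b, a partner of cyclin-dependent kinases (5.93 and 9.68). The ends of that list were Cdca8 (0.58 and 1.09 TPM) and Mybl2, the gene of B-Myb (0.24 and 0.09 TPM), on at most 29 estimated reads a library. The 64 other mitosis genes in both tables summed to 216 TPM in KO against 231 in WT, a ratio of 0.935, with an interval of the summed means of -0.12 to -0.01.

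The list of brakes and quiescence genes holds E2F factors, their partners and subunits of the DREAM complex beside inhibitors of the cycle. It summed to 320 TPM in KO against 341 in WT, and 23 of 31 lay below 0, against 52.3% of all genes tested. Counting intervals lay below 0 for 9 of the 31 and above 0 for 2, against 10.9% and 9.58% of all genes tested. Of the 31, 2 were called lower and 0 higher, against 1.60% and 1.72% of all genes, with a median log2 change of -0.06. Both genes called encode kinases that hold Cdk1 inactive, Wee1 (1.70 TPM in KO, 2.68 in WT) and Pkmyt1 (0.79 and 1.5). Rbl2, the Rb relative of resting cells, was at 18.0 TPM in KO against 18.3 in WT, and Cdkn1b, which restrains cyclin E kinases, at 15.7 and 16.1 TPM. Cdkn1a, the p53-responsive kinase inhibitor, was at 13.2 TPM in KO against 16.1 in WT. Its log2 change of -0.29 did not pass the fold of the rule, while its counting interval (-0.48 to -0.07) missed 0. Highest in the list was E2f8, a repressor of E2F genes, with a log2 change of 0.40. Among 24 G1 drivers and other cyclins, Myc was called higher (5.89 TPM in KO, 3.16 in WT) and Mycn lower (1.23 and 1.92), and the median was -0.01. Intervals of that list lay above 0 for 5 genes, Myc included, and below 0 for 1, Mycn. Rbl2, Cdkn1b, Cdkn1a and Hist1h2bc below were named after their values were seen.

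The library kit took total RNA, so histone transcripts without a poly(A) tail could also be read. Of 63 genes of the Hist1 to Hist4 clusters that average 0.1 TPM or more, 2 were called higher and 3 lower, against 1.72% and 1.60% of all genes tested, and the median log2 change was -0.12. Hist1h2ae (3.95 TPM in KO, 0.88 in WT) and Hist1h2ag (4.80 and 1.45) were higher, and Hist1h2ao (3.89 and 7.16), Hist1h3d (2.89 and 6.18) and Hist1h4j (5.06 and 10.7) were lower. These genes are near-identical copies between which the authors' counting splits reads, and each call rests on at most 44.25 estimated reads a library, so single values are uncertain. Their sum was 2004 TPM in KO against 2031 in WT, a ratio of 0.987, while the summed means gave a ratio of 1.04 in the opposite direction. Without Hist1h2bc, the most abundant (311 and 276 TPM), the TPM sums were 1694 and 1755.

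**Figure D4:**
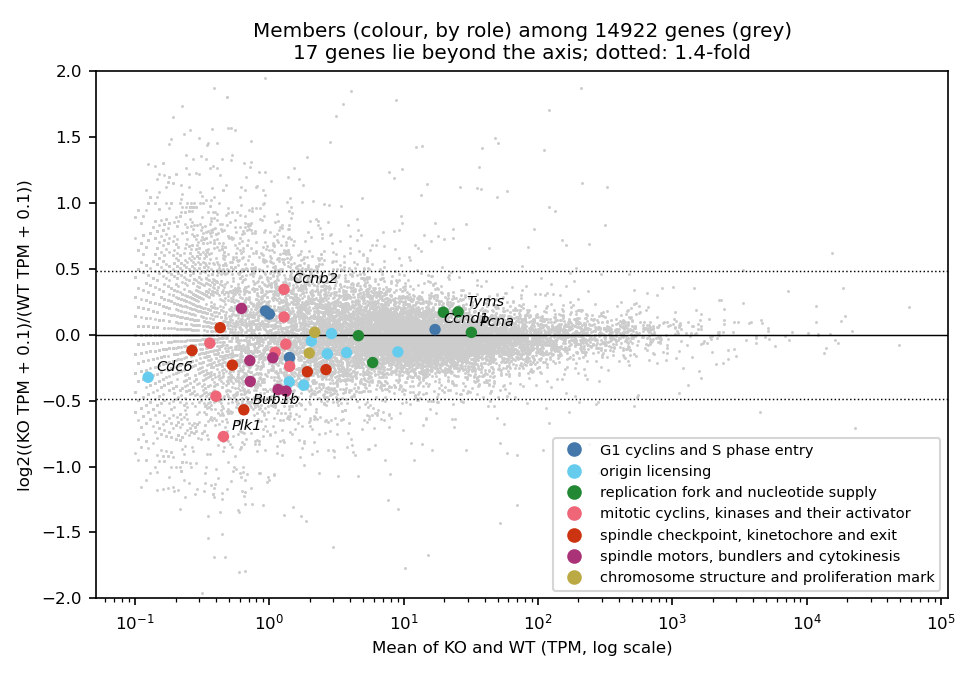
Log2 change against mean level (TPM, log axis) for the 14922 genes tested (grey), with the 39 members coloured by role; dotted lines mark a fold of 1.4, and 17 genes lie beyond the axis. Members lie inside the grey cloud of genes of like level, and Plk1 and Bub1b are the 2 below the lower dotted line.

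Transcripts of cells other than hepatocytes were read beside these results, since cycling cells of a resting liver need not be hepatocytes. Of 10 Kupffer cell and macrophage markers, 9 lay above 0, and the list summed to 394 TPM in KO against 349 in WT. Endothelial markers summed to 223 and 244 TPM, with 9 of 9 below 0 and Lyve1 called lower (11.5 TPM in KO, 17.9 in WT). Stellate markers summed to 240 and 268 TPM, with 7 of 9 below 0. Of 6 cholangiocyte markers 5 lay below 0, and the sums were 62.5 and 67.6 TPM. These sums are mostly Spp1, and without it they were 4.65 and 6.14 TPM. Epcam was called lower (0.67 and 1.51), on 17 and 53 estimated reads, whereas Krt19 was at 1.07 TPM in KO and 1.06 in WT. Of 11 erythroid precursor markers 7 lay below 0 and 4 above it, with sums of 1426 and 1446 TPM, while their summed means gave a ratio of 1.01 in the opposite direction. Hbb-bs was called lower (41.3 and 77.1). Of the single intervals, 2 lay below 0, those of Hbb-bs and Tfrc (10.8 TPM in KO, 13.2 in WT). Another 2 lay above it, those of Hba-a1 (683 and 600 TPM) and Alas2 (118 and 114 TPM), while Hba-a2 was lower in KO by TPM (490 and 542). The precursor gene Klf1 was at 1.72 TPM in KO and 2.38 in WT, on 32 and 60 estimated reads, and its interval (-1.14 to 0.17) held 0. Of 8 B and plasma cell markers 3 lay below 0, and Igj was called higher (1.62 and 0.88). The sums of 110 and 116 TPM are mostly Xbp1, which hepatocytes also express, and without it the direction turned, with 4.83 TPM in KO against 3.30 in WT and an interval of the log2 ratio of summed means of 0.09 to 0.98. T and NK cell markers summed to 3.60 and 3.82 TPM, with 4 of 8 below 0 and Nkg7 called lower (0 estimated reads in KO, 12 in WT). The other 4 lay above 0, among them Gzmb (0.91 and 0.47 TPM) and Cd3g (0.83 and 0.44). This list rests on 50 and 70 estimated reads, and the interval of its summed means (-0.61 to 0.49) holds 0. Neutrophil and myeloid markers summed to 6.72 and 5.72 TPM, with 2 of 5 below 0. They rest on 27 and 33 estimated reads, and the interval of their summed means (-0.65 to 0.92) holds 0. Without S100a9 the sums were 2.89 TPM in KO and 2.95 in WT. The part of these cell types in the values of the members was not tested.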

How the data were processed

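Liver RNA was pooled by genotype before library preparation with a stranded total RNA kit. Per the labels and the study's methods, the authors used CASAVA 1.8.2 and aligned paired reads to mm10 with RSEM 1.2.09 and Bowtie; the annotation is not given in the sources used here. They deposited posterior mean TPM per gene, which sum to 1005325 in KO and 994702 in WT, and, from EBSeq, a mean signal of either genotype, in which estimated reads were scaled by its size factor. The other columns of the second table hold fold changes and probabilities of differential expression by EBSeq and were not used. The most frequent value of each mean column (1.16 in KO, 0.860 in WT) was taken as 1 read. Within 0.02, 35 member values in KO and 34 in WT were whole, but over all genes 78.4% and 75.0%. No p-value was computed from these reads. The counting intervals use them rounded to whole numbers, so the intervals are approximate. The pseudocount was 0.1 TPM and the minimum mean 0.1 TPM.

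Without replicates, p-values were not computed. Intervals are at 95%. The call rule was checked on simulated reads with known changes of 2-fold, in genes with more estimated reads than the rarest members. The fold was there taken from reads and not from TPM. Changes near 1.4-fold and genes as rare as Cdc6 or Plk1 were not covered by that check. Genes named are all members, called genes and both ends of each list, by rule; any other is said to be chosen later or defines a cell type. Some single marker genes are not reported here. The rule for the members uses no measured value, but the members and lists were chosen with earlier results of these data known. Shared windows of 100 bases came from GENCODE M21 transcripts, and positions and promoters from RefSeq, both on GRCm38. Alternatives changed the pseudocount, the table, the centring, the filter and the fold. The tools were matplotlib 3.10.9, scipy 1.17.1, pandas 2.3.3, numpy 2.4.6 and Python 3.11.15.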

Additional observations from a re-analysis of the deposited data

How the results depend on the processing

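No paired analysis was possible because the mice were pooled into a single library for either group. No member was called higher under any of 9 alternatives, and none lower under 8 of them (pseudocounts of 1 and 0.01 TPM, the authors' means, centring, folds of 2 and 0.6, and other filters). Most of these could hardly add a call. The changed folds and the filter at 1 TPM are stricter than the main rule, and all members already passed its filter. The pseudocounts, the means and the centring reuse the same counting intervals, which missed 0 for Tyms and Kif11 alone. With no counting interval asked, 2 were lower. The log2 ratio of the mitosis sum lay between -0.18 and -0.17 under 4 alternatives. The median of the members' log2 changes was -0.13 for all members and -0.047 for G1 and S members, against sums at 0.00 and 0.03, since the sums are carried by a few abundant genes and the median weights genes equally. The other 38 values of sums and 156 values of single members moved by less than their counting error. That error is wide for rare members, so this limit is lenient for them: Plk1 ran from -0.95 to -0.29 and Cdc6 from -0.77 to -0.06. Among single members Rrm1 alone changed sign, between -0.01 and 0.01. The sum of all members was -0.0042 without Pcna. The medians of the other cell cycle and histone lists lay between -0.12 and 0.0085 in 15 alternatives, and that of the G1 drivers turned from -0.0067 to 0.0085 with the authors' means. Depth limits the mitosis members, with a median of 37 estimated reads in KO and 58 in WT, and pooling limits all of them.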
